A study of Drosophila melanogaster with 43 samples.

Results

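The genes described here encode 10 proteins of the muscle sarcomere: Mhc, Mlc2, Act88F, Act57B, Act87E, up, wupA, Tm1, Tm2 and sls. They were chosen by symbol, and each symbol was found in the 14410 head features that carried a gene name and in the 13792 genes listed for S2 cells. All 10 passed the minimum mean of 1 FPKM (fragments per kilobase of transcript, relative to library size) for testing in heads, where 8720 features were tested. In S2 cells 2 of the 10 passed.

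The sarcomere is the contractile unit of striated muscle. Myosin heavy chains, with their light chains, form thick filaments that pull on thin filaments of actin. Tropomyosin lies along the thin filament, and the troponin complex moves it when calcium rises, so that myosin can bind. Titin-like proteins such as Sallimus tie the filaments to the Z-disc, the border of the sarcomere. A fly head holds muscle of the proboscis and antennae among a larger mass of nervous tissue, eye and fat body.

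Total RNA was measured in head extracts fractionated with biotinylated isoxazole (b-isox), an agent that brings down proteins with low-complexity sequence and the RNA held with them. The groups were the b-isox pellet and the supernatant that remained, with replicates 1 to 4 used in the tests and replicates 5 and 6 described separately. All head samples had the genotype label Orb2 WT-GFP and came from flies raised at 25 °C, with no age or sex given. Both fractions therefore carried the same tagged Orb2, a fly CPEB protein that binds mRNA and regulates its translation, and no untagged strain was compared here. The S2 cells, a cultured line with features of blood cells, formed 2 groups of 2 samples. The Orb2B cells were labelled as overexpressing Orb2B and were kept in 300 µg/ml hygromycin B. The background cells were labelled only as background, with no hygromycin B listed. Both S2 groups were grown at 27 °C and received 250 µM copper sulfate. Nothing in the labels says that replicates were separate animals or cultures, so a p-value reflects the spread over these libraries, part of which may be technical.

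Head values are FPKM divided by a scaling factor per library, called scaled FPKM below. The factors were 1.27 to 1.65 in pellets and 0.665 to 0.737 in supernatants, and as deposited the median feature was 0.87 log2 units higher in the pellet. Without scaling, 7 of the 10 genes were higher in the pellet by limma and 0 were lower, where the background was 51.9% of features higher and 0.459% lower. Directions below are therefore given after scaling, relative to the median feature. The number of reads is unknown in either set, so no counting interval is given except the bounds that the authors' files hold for each FPKM.

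In heads, 0 of the 10 genes differed between pellet and supernatant by limma at an adjusted p under 0.05, against a background of 1.97% of features higher in the pellet and 1.77% lower. At an unadjusted p under 0.05 there were 2, Tm1 and sls, against 22.6% of all features. The median log2 difference over the 10 was -0.06, beside -0.01 over all tested features, and 4 were positive and 6 negative. Pellet and supernatant libraries with the same number deviated together, and with the replicate number as a block 1 of the 10 was called, Tm1, which was higher in the pellet. The background in that fit was 6.98% higher and 7.56% lower. This call was lost when any 1 of the 4 replicates was left out of the blocked fit (adjusted p = 0.0826 to 0.113), where 0 to 4 features in all were called higher and 0 to 7 lower.

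**Figure D1:**
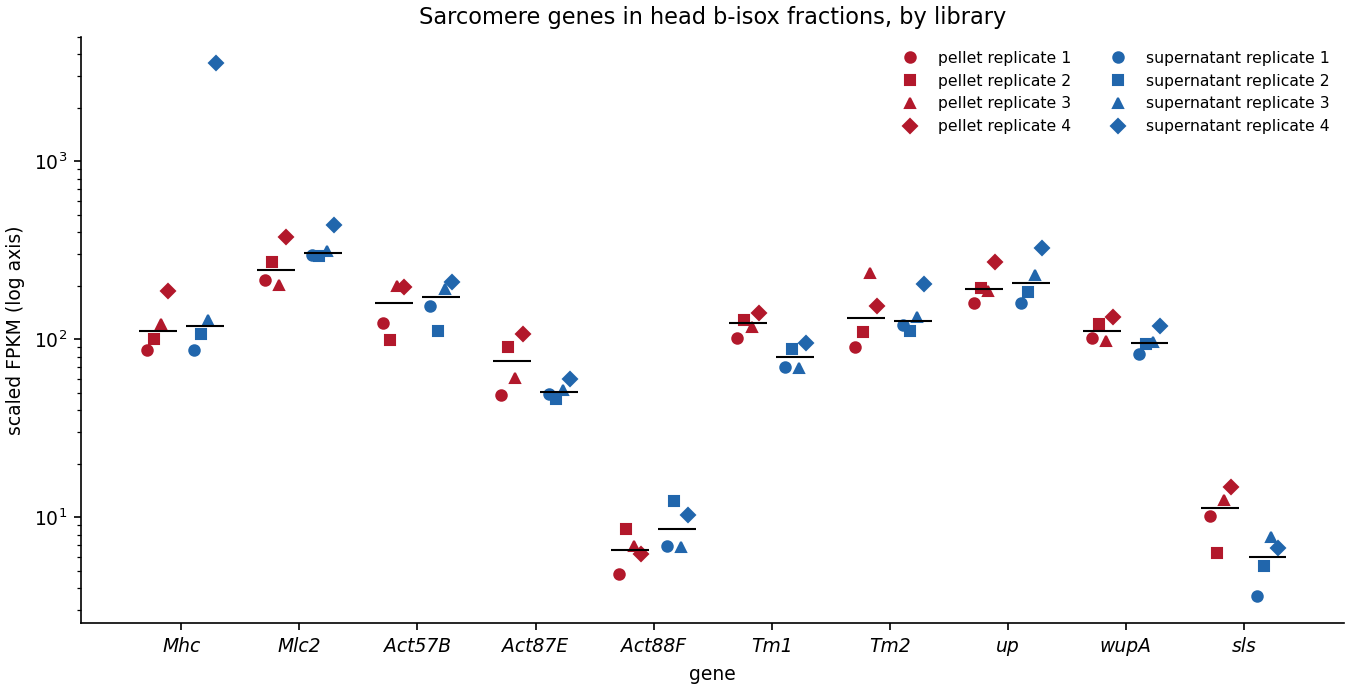
Scaled FPKM (log axis) of each gene in the 4 pellet libraries (left, red) and the 4 supernatant libraries (right, blue), with a symbol for each replicate number and a line at the median of each fraction. Mhc in supernatant replicate 4, at 3546, stands above every other point, and Tm1 is the gene whose fractions do not overlap.

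The thick filament genes were Mhc and Mlc2. Mhc (chr2L:16766737-16789540, build dm3) encodes the muscle myosin heavy chain, whose many isoforms all come from this gene by alternative splicing. It stood at 87.3, 100.04, 122 and 187 scaled FPKM in pellets 1 to 4, and at 87.5, 107, 129 and 3546 in supernatants 1 to 4. Supernatant 4 was thus the one high library, and the other 3 supernatants lay within the range of the pellets. On the log2 scale the difference was -1.11 (SE 1.11, limma adjusted p = 0.585). Without supernatant 4 alone it was 0.16 (SE 0.30, adjusted p = 0.798), and without both libraries of replicate 4 it was -0.06 (SE 0.23, adjusted p = 0.900), so the size rests on that library. The difference within a pair was -0.0039, -0.10, -0.08 and -4.24 for replicates 1 to 4.

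As deposited, Mhc in supernatant 4 was 2613 FPKM, with bounds of 2502 to 2723 in the authors' file, beside 63.9, 71.2 and 87.2 FPKM in supernatants 1 to 3. The Mhc entry had the same start in all 8 libraries, and its end lay between 16788766 and 16789540, with 16788868 in supernatant 4. Coordinates given here for a gene are the widest over the libraries. After scaling, supernatant 4 exceeded the highest other supernatant 27.5-fold and the highest pellet 19.0-fold. Of 8662 features with a value for this ratio, 6 reached or passed 27.5, Mhc among them, and 11 passed 10. Argk, which encodes arginine kinase, an enzyme that buffers ATP in muscle and nerve, was also high there, at 905 scaled FPKM against 137 to 164 in the other 3 supernatants. Unnamed loci held 97.2% of summed FPKM in supernatant 4, beside 22.3% to 94.1% in the other libraries of replicates 1 to 4. The cause of the high Mhc and Argk values was not tested.

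Mlc2 (chr3R:25997160-26000273) encodes the regulatory light chain of muscle myosin and had the highest pellet mean of the 10. Its values were 215, 273, 201 and 376 scaled FPKM in pellets 1 to 4, against 298, 294, 314 and 440 in supernatants 1 to 4. The fractions overlapped through pellet 4, yet the pellet was below its own supernatant in 4 of 4 pairs, which holds for 24.5% of all features. For Mlc2 the log2 difference was -0.36 (SE 0.24, 95% interval -0.90 to 0.18, limma adjusted p = 0.394). As deposited it was 0.64 (adjusted p = 0.067), still below the median feature of that fit, at 0.87. The Mhc value was 0.367 to 0.610 of the Mlc2 value in pellets and 0.294 to 0.411 in supernatants 1 to 3, but 8.06 of it in supernatant 4.

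The thin filament actins were Act57B, Act87E and Act88F. Actin genes are near-identical in coding sequence, so reads can be split or shared between them and levels of single actins are uncertain. Act57B (chr2R:16831533-16833945), a major actin of larval and adult body muscles, shared its entry with a small nucleolar RNA gene. It ranged from 99.5 to 199 scaled FPKM in pellets and from 111 to 210 in supernatants. Its log2 difference was -0.13 (SE 0.30, limma adjusted p = 0.826). As deposited it was 0.87 (adjusted p = 0.027), where the median feature was at 0.87 as well.

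Act87E (chr3R:9251707-9253811), another muscle actin, was at 48.9, 90.4, 60.5 and 107 scaled FPKM in pellets 1 to 4 and at 49.2, 45.9, 51.7 and 59.8 in supernatants 1 to 4. Pellets 2 and 4 were the high libraries, and pellet 1 lay among the supernatants. Its pellet exceeded its supernatant by a log2 value of 0.51 (SE 0.26, 95% interval -0.09 to 1.10, limma adjusted p = 0.288), with the pellet higher in 3 of 4 pairs. Act88F (chr3R:11265710-11267895), the actin of the indirect flight muscles, was the lowest actin, at 4.82 to 8.57 scaled FPKM in pellets and 6.83 to 12.3 in supernatants. Its log2 difference was -0.41 (SE 0.25, limma adjusted p = 0.364). As deposited it was 0.53 (adjusted p = 0.136), below the median feature of that fit, at 0.87.

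Among these 3 actins, Act57B held 50.1% to 74.7% of their summed FPKM in pellets and 65.7% to 76.6% in supernatants. Act88F held 2.00% to 4.32% in pellets and 2.73% to 7.26% in supernatants. Act87E held the rest, and its share was highest in pellet 2, at 45.5%. The order Act57B, Act87E, Act88F was the same in all 8 libraries. In a bulk extract, fewer cells of a type and less RNA per cell cannot be told apart, so these levels do not say which muscles the RNA came from.

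The tropomyosins are Tm1 and Tm2, which lie next to each other on chromosome arm 3R with 1413 bp between them. Tm1 (chr3R:11107093-11134501) gives muscle tropomyosins and also cytoskeletal forms made in many cells, and the gene totals used here do not separate these. It was at 102, 129, 117 and 141 scaled FPKM in pellets 1 to 4, against 70.2, 88.4, 68.6 and 95.1 in supernatants 1 to 4. Every pellet was above every supernatant, which was so for 8.12% of all features, with 7.86% the other way round. The log2 difference was 0.60 (SE 0.17, 95% interval 0.20 to 1.0004), with an adjusted p of 0.101 by limma without the block and 0.0276 with it. Tm1 was higher in 4 of 4 pairs, by 0.54, 0.54, 0.77 and 0.56.

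Tm2 (chr3R:11135915-11141181), which encodes a muscle tropomyosin, was at 90.1 to 237 scaled FPKM in pellets and 111 to 203 in supernatants. Pellet 3 was the high one, and the pellet was higher in 1 of 4 pairs. The log2 difference was -0.01 (SE 0.33, 95% interval -0.76 to 0.75, limma adjusted p = 0.994). As deposited it was 0.99 (adjusted p = 0.027), where the median feature was at 0.87. The Tm1 value was 1.13, 1.17, 0.494 and 0.916 of the Tm2 value in pellets 1 to 4, and 0.584, 0.794, 0.513 and 0.467 of it in supernatants 1 to 4, so the neighbours did not move as a unit in each library.

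The troponin genes were up and wupA on the X chromosome. up (chrX:13487160-13496536) encodes troponin T, which joins the troponin complex to tropomyosin, and wupA (chrX:17999586-18010855) encodes troponin I, the inhibitory subunit. up was at 161 to 273 scaled FPKM in pellets and 160 to 324 in supernatants, with a log2 difference of -0.12 (SE 0.26, limma adjusted p = 0.821). As deposited this was 0.88 (adjusted p = 0.025), where the median feature was at 0.87. Without supernatant 4 the scaled difference of up was 0.08, so its sign was not settled.

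wupA was at 101, 122, 97.5 and 133 scaled FPKM in pellets 1 to 4, against 82.2, 93.8, 96.9 and 119 in supernatants 1 to 4. The fractions overlapped, and the pellet was higher in 4 of 4 pairs, as it was for 21.4% of all features, by a margin of only 0.01 in replicate 3. The log2 difference was 0.21 (SE 0.17, 95% interval -0.19 to 0.61, limma adjusted p = 0.503). The wupA value was 0.487 to 0.630 of the up value in pellets and 0.367 to 0.513 of it in supernatants. In each of the 4 replicates it was the higher ratio that came from the pellet.

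The Z-disc gene was sls (chr3L:2039655-2115611), which encodes the titin-like Sallimus and its shorter form kettin. It was at 10.1, 6.30, 12.6 and 14.9 scaled FPKM in pellets 1 to 4, against 3.61, 5.30, 7.80 and 6.73 in supernatants 1 to 4. Pellet 2 was below 2 of the supernatants, and the other 3 pellets were above all of them. The log2 difference was 0.84 (SE 0.31, 95% interval 0.11 to 1.56), with limma adjusted p-values of 0.172 without the block and 0.0686 with it. The pellet was higher in 4 of 4 pairs, by 1.37, 0.23, 0.66 and 1.09.

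**Figure D2:**
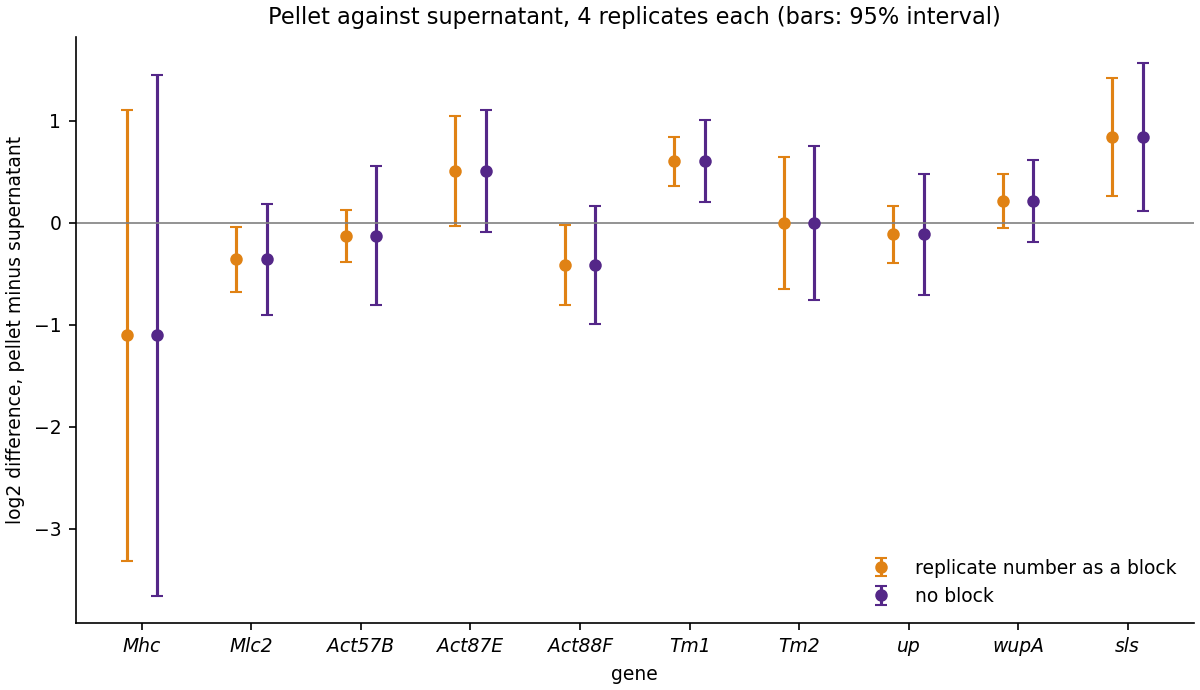
Log2 difference, pellet minus supernatant, of each gene in head replicates 1 to 4, with 95% intervals from the fit with the replicate number as a block (left, orange) and without it (right, purple). The interval of Tm1 lies above 0 in both fits, as does that of sls, and the interval of Mhc is the widest.

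By mean scaled FPKM per fraction, which is per kilobase, the pellet order was Mlc2, up, Act57B, Tm2, Mhc, Tm1, wupA, Act87E, sls and Act88F. Each neighbour in that order overlapped the next in its range over libraries, except Act87E and sls, which were separated (lowest Act87E 48.9, highest sls 14.9). In supernatants the order of the means was Mhc, Mlc2, up, Act57B, Tm2, wupA, Tm1, Act87E, Act88F and sls, with Mhc first because of supernatant 4. By medians Mhc, at 118, came after Tm2, at 127. There the separated neighbours were Tm1 and Act87E, and Act87E and Act88F. In all 8 libraries 8 of the genes were at or above 90.2% of named features by deposited FPKM. Act88F and sls lay lower, with 63.4% to 76.2% and 60.1% to 78.6% of features at or below them.

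Without Mhc, the other 9 genes summed to 856, 1032, 1118 and 1400 scaled FPKM in pellets 1 to 4, and to 945, 946, 1102 and 1469 in supernatants 1 to 4. Replicate 4 had the highest sum in both fractions. Across the 8 libraries, which share their 4 replicate numbers and 2 fractions, Pearson's r between 2 of the 10 genes on the log2 scale ran from -0.51 (Act88F and sls) to 0.85 (Act87E and wupA). Mlc2 and up had 0.81, and Tm1 and Tm2 had 0.20. These values describe the libraries and carry no test.

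The locus span from the files was not used to choose the genes and ran from 2.11 kb for Act87E to 76.0 kb for sls. The 3 genes with a log2 difference above 0 other than Act87E, namely wupA (11.3 kb), Tm1 (27.4 kb) and sls (76.0 kb), were among the 4 longest loci. Mhc, at 22.8 kb, was the exception. Over all tested features of 1 gene the median log2 difference was -0.19 for 3994 features under 2.5 kb, -0.04 for 1570 of 2.5 to 5 kb and 0.27 for 1403 of 5 to 15 kb. It was 0.62 for 706 of 15 to 50 kb and 0.89 for 205 of 50 kb or more. Tm1 at 0.60 and sls at 0.84 thus lay at about the median of features of their own span. With all libraries Mhc, at -1.11, was below the lower quartile of its class, 0.22. Mhc was at 0.16 (SE 0.30) without supernatant 4 and at -0.06 (SE 0.23) without replicate 4. The quartile was not computed anew for those fits, so the place of Mhc in its class there is not known. Act87E at 0.51 was above the upper quartile of its class, 0.15. Spearman's rho of span and log2 difference was 0.38 over the 10 genes, 0.62 over the 9 without Mhc and 0.36 over 7878 features. The part of locus span in the values of Tm1 and sls was not tested.

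**Figure D3:**
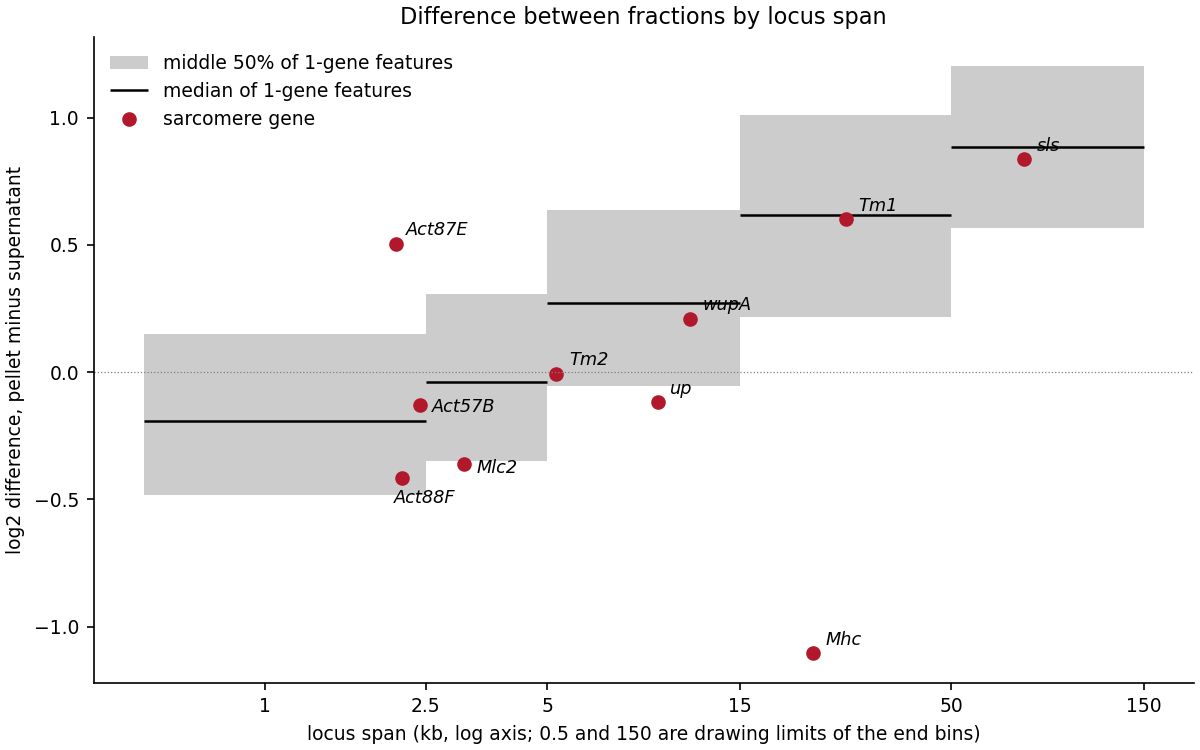
Log2 difference, pellet minus supernatant, against locus span in kb (log axis). Grey bands and black lines give the middle 50% and the median of tested 1-gene features in 5 classes of span, and red points are the sarcomere genes, of which Act57B shares its entry with a second gene. sls and Tm1 sit near the median lines of their classes, Act87E sits above its band and Mhc below its own.

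Replicates 5 and 6 held loci without gene names, so a locus was assigned to a sarcomere gene where each covered at least 50% of the other. In each of these replicates 7 of the 10 genes had a locus in both fractions, and Mhc and sls had none. The difference within replicate 5, after scaling, was above 0 for 1 gene and below 0 for 6, and within replicate 6 it was above 0 for 2 and below 0 for 5. wupA was the gene above 0 in both, by 0.34 and 0.12, and it was above 0 in replicates 1 to 4 as well. Mlc2 was below 0 in both, by -0.16 and -0.02. Tm1 was at -1.48 in replicate 5, where the pellet locus and the gene overlapped over only 51.1% of the longer of them. Tm1 was at 0.60 in replicate 6, where that overlap was 62.0%. Act87E went the other way from replicates 2 to 4, with -0.34 and -1.07. In replicate 6 its overlap was 99.2% in the pellet but 70.9% in the supernatant, so the loci compared differed in extent. The Tm2 loci of replicate 6 overlapped the gene by only 53.1% in the pellet and 59.2% in the supernatant.

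As deposited, Mlc2 was at 1800 FPKM in pellet 5 and 1673 FPKM in pellet 6, against 2205 FPKM in supernatant 5 and 1595 FPKM in supernatant 6. These stand above the 195 to 478 FPKM of replicates 1 to 4, but the tables were normalized separately. Act88F held 8.55% of the 3 actins' FPKM in pellet 5 and 11.7% in supernatant 5, and Act57B held 59.4% and 58.9%. In a fit over 6 replicates that kept 2711 features, limma called 0 of the 6 sarcomere genes present, where the background was 4.61% of features higher and 5.79% lower. Tm1 had a log2 difference of 0.36 (adjusted p = 0.468) and wupA one of 0.32 (adjusted p = 0.120). Act87E had 0.20 (adjusted p = 0.702) and Mlc2 -0.17 (adjusted p = 0.547), and each of these 4 kept the sign it had over 4 replicates.

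**Figure D4:**
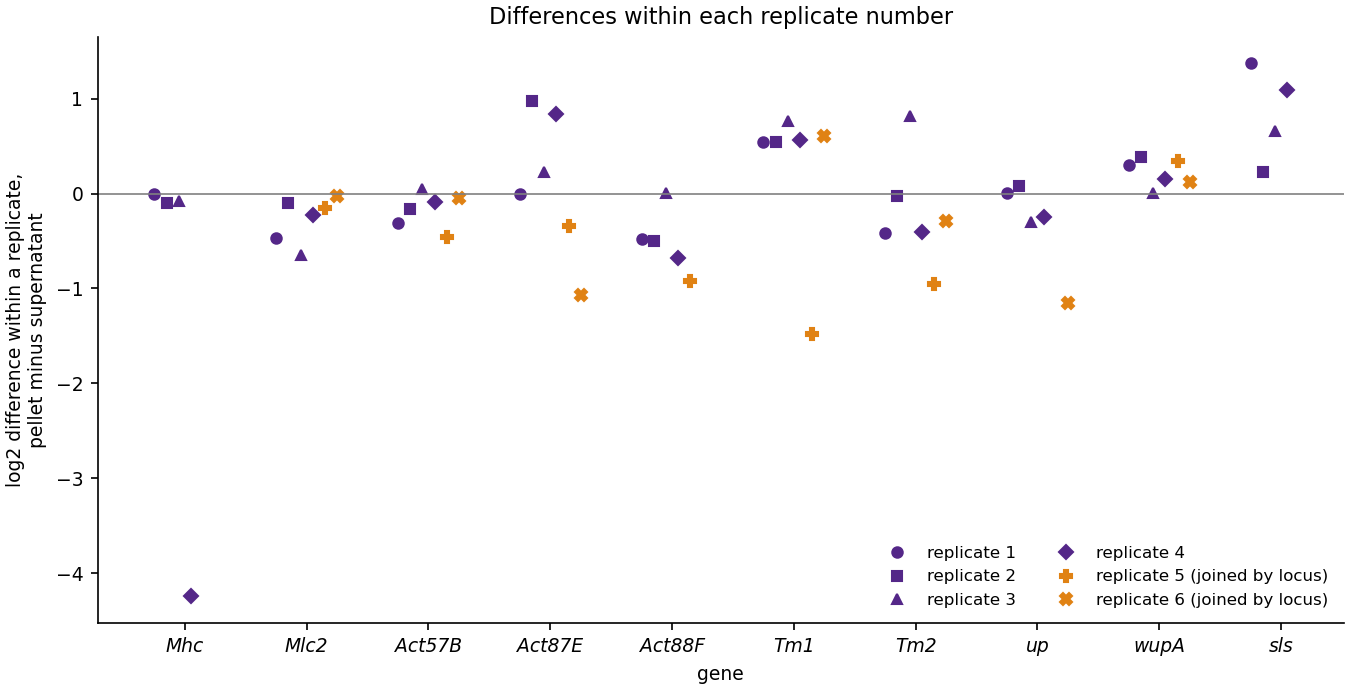
Log2 difference, pellet minus supernatant, within each replicate number; purple symbols are replicates 1 to 4 and orange symbols are replicates 5 and 6, joined by locus overlap. wupA is above 0 wherever it was measured, Tm1 is above 0 in each replicate but replicate 5, and the Mhc point of replicate 4 lies at -4.24.

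In S2 cells, which are not muscle, 9 of the 10 genes stayed under 2 RPKM (reads per kilobase, relative to library size) in every library and 7 stayed under 1. Tm1 was the exception, at 20.3 and 23.8 RPKM in Orb2B cells and 14.7 and 13.9 RPKM in background cells. Its deposited values in heads were 149 to 212 FPKM in pellets and 46.4 to 70.1 FPKM in supernatants. Head FPKM and S2 RPKM came from separately made tables, so they are set side by side without a test. Within S2 libraries, Tm1 was at or above 70.9% to 79.7% of genes, and no other gene of the 10 passed 52.4%.

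Tm1 was higher in Orb2B cells than in background cells, by 0.66 on the log2 scale (SE 0.18, 95% interval 0.23 to 1.09, limma adjusted p = 0.0258, n = 2 per group). Both Orb2B libraries were above both background libraries, but the share of all S2 genes for which this held was not computed. Tm1 was 1 of 2 genes tested, where the background was 17.0% of genes higher and 19.9% lower. With values as deposited the difference was 0.60 and the call was lost (adjusted p = 0.0577). It was lost too without Orb2B replicate 1 (0.72, adjusted p = 0.161) or 2 (0.64, adjusted p = 0.193), where the lone Orb2B library is assumed to vary like the background libraries. Without background replicate 1 or 2 it held (0.77 and 0.53, adjusted p = 0.00907 and 0.0326). Mlc2 was at 0.587 and 0.900 RPKM in Orb2B cells and 1.34 and 1.37 RPKM in background cells, a log2 difference of -0.55 (SE 0.26, adjusted p = 0.133). Hygromycin B differs between these groups together with Orb2B, and the 2 cannot be told apart.

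The other 8 were under the minimum mean of 1 and were not tested in the main S2 fit. Act88F was at 1.15 and 0.275 RPKM in Orb2B cells and 0.0762 and 0.0486 RPKM in background cells. Act87E was at 0.502 and 0.318 RPKM in Orb2B cells and 0.176 and 0.0898 RPKM in background cells. With no minimum their limma adjusted p-values were 0.115 and 0.0761, so neither difference passed, where the background was 9.10% of genes higher and 11.4% lower. Tm2 was at 0.0570 and 0.0169 RPKM in Orb2B cells and was listed at 0 in both background libraries, as were 26.3% and 29.9% of genes there. Mhc was at 0.0435 and 0.0729 RPKM in Orb2B cells and 0.0854 and 0.00908 RPKM in background cells.

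**Figure D5:**
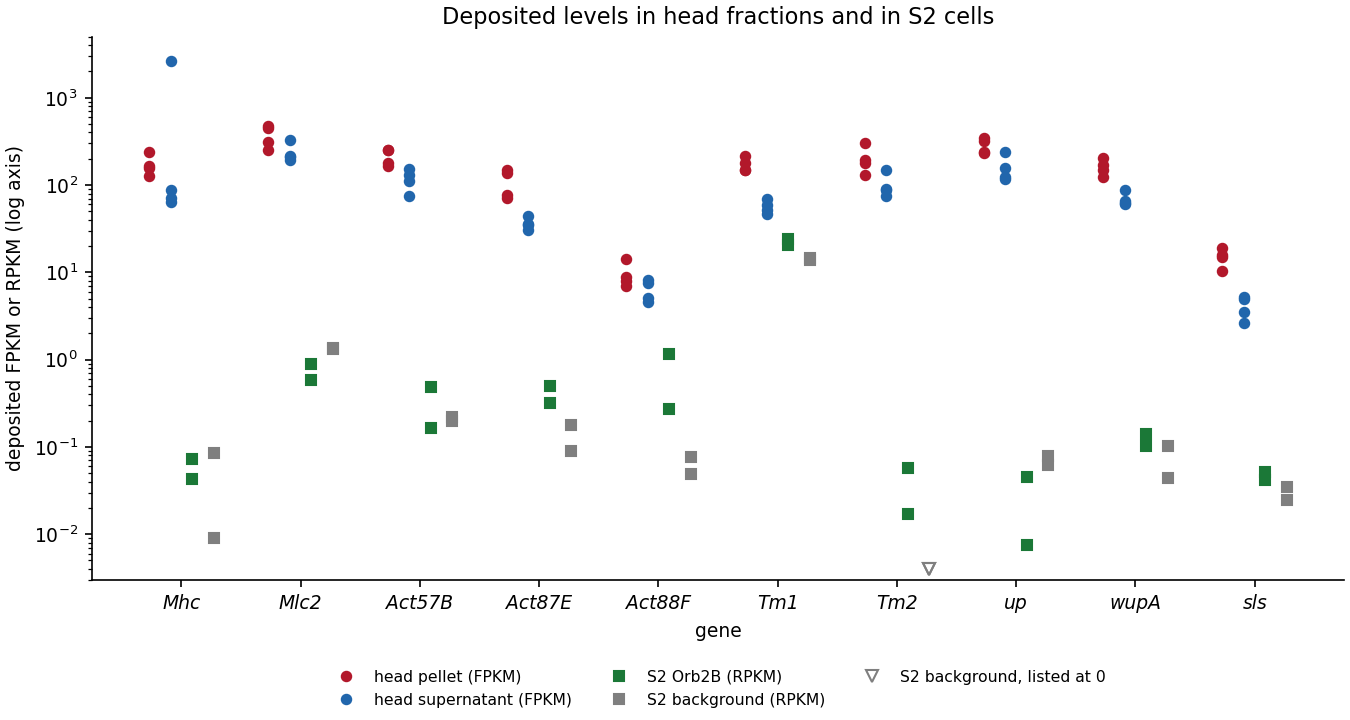
Deposited values of each gene (log axis) in head pellets and head supernatants (FPKM, circles) and in S2 Orb2B and S2 background cells (RPKM, squares), left to right; open triangles mark libraries listed at 0, drawn at the axis floor. Tm1 is the gene whose S2 values, 13.9 to 23.8 RPKM, come nearest to its head values.

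Other genes of the sarcomere were described from a wider list. Of 20 tested features of that list, 0 were higher and 0 lower in the pellet, with a median log2 difference of -0.06, and with the block 0 were higher and 1, Mf, was lower (adjusted p = 0.0223). Mf encodes myofilin, a thick filament protein, and was at 236 to 393 scaled FPKM in pellets and 421 to 648 in supernatants. Mlp60A, a muscle LIM protein, was at 774 to 1642 scaled FPKM in pellets and 659 to 865 in supernatants (log2 difference 0.80, limma adjusted p = 0.108). Act79B, a further muscle actin, was at 546, 625, 2121 and 799 in pellets 1 to 4 and 726, 2880, 7153 and 1004 in supernatants 1 to 4 (log2 difference -1.17, adjusted p = 0.387). Its high libraries were supernatants 2 and 3 and pellet 3, not those of replicate 4.

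Of 7 tested genes for muscle membrane and calcium handling, 0 were called in either direction, with a median of 0.58, and with the block mys, an integrin subunit, was higher (adjusted p = 0.0275). Ca-P60A, the calcium pump that refills the muscle store, was at 15.98, 43.6, 15.4 and 60.7 scaled FPKM in pellets 1 to 4 and 8.17 to 10.8 in supernatants. Its log2 difference was 1.59 (limma adjusted p = 0.0954). Over all tested features 1.97% were higher in the pellet without the block and 6.98% with it. Of 11 tested muscle regulators 2 were higher and 0 lower, with a median of 0.81, and with the block 6 were higher. The 2 were salm, a zinc finger factor that specifies flight muscle fibres (log2 difference 1.28, adjusted p = 0.0141), and hth, a homeodomain factor (1.196, adjusted p = 0.0328), and both also act in other head tissues. salm met the minimum only through its pellets (1.897 to 2.26 scaled FPKM, against 0.414 to 0.720 in supernatants), as did 3 of the 11 regulators in all, so its call and that list's counts and median were favoured by the minimum. Locus span was 11293 bp for salm and 129080 bp for hth. Medians of tested 1-gene features were 0.27 for 5 to 15 kb and 0.89 for 50 kb or more. The part of span in the regulator differences was not tested. salm was also the 1 of 4 tested flight muscle markers called, and the median of that list was -0.05. The other 3 had negative differences, Act88F -0.41, fln -0.07 and Strn-Mlck, in an entry joined with other genes, -0.03.

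Of 10 non-muscle actin and myosin genes, 1 was higher and 0 lower in the pellet, with a median of -0.12, and with the block 1 was higher and 1 lower. The higher one was sqh in both fits, the regulatory light chain of non-muscle myosin, at 16.2 to 19.6 scaled FPKM in pellets and 9.68 to 12.2 in supernatants (log2 difference 0.73, limma adjusted p = 0.0328). Its counterpart in muscle, Mlc2, had -0.36. The lower one was tsr, the fly cofilin, which severs actin filaments, at 264 to 494 scaled FPKM in pellets and 562 to 1384 in supernatants (log2 difference -1.26, adjusted p = 0.0674 without the block and 0.0261 with it), named after its values were seen. In S2 cells 3 of these 10 were higher with Orb2B and 1 was lower, where the background was 17.0% of genes higher and 19.9% lower. Among the higher ones was Act5C, a cytoplasmic actin (log2 difference 0.98, adjusted p = 0.0221), and the lower one was Gel, gelsolin (-2.46, adjusted p = 0.000596), both named after their values were seen.

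Markers of other head tissues had the following differences between fractions, and their part in the values of the sarcomere genes was not tested. Over all tested features 1.97% were higher in the pellet and 1.77% lower. Of 7 neuron markers 2 were higher and 0 lower in the pellet, with a median of 0.92. These were Syt1 (1.78, limma adjusted p = 0.0146) and elav (1.02, adjusted p = 0.0223), and the summed level of the list was 480 to 817 scaled FPKM in pellets and 287 to 599 in supernatants. Of 7 fat body markers 0 were higher and 1 lower, Yp1 (-0.98, limma adjusted p = 0.0039), with a median of -0.02. Their sums, 1966 to 2371 in pellets and 2865 to 3417 in supernatants, were mostly those of Yp1, Yp2 and Yp3. The uncalled genes Fbp1 (1.37) and fit (0.42) had positive differences, and those of Yp2, Yp3, Lsp2 and to were negative. Locus span differed among these markers, at 27807 bp for Syt1, 13715 bp for elav and 1647 bp for Yp1. Medians of tested 1-gene features were 0.62 for 15 to 50 kb, 0.27 for 5 to 15 kb and -0.19 under 2.5 kb. The part of span in the marker differences was not tested. None of 7 glia markers (median 0.69), 8 photoreceptor markers (median 0.27) or 5 blood cell markers (median 0.01) was called by limma without the block, and 2 of the 7 glia and 2 of the 7 fat body markers met the minimum only through the pellet. With the block 3 neuron markers were higher, the third being para, a sodium channel (1.10, adjusted p = 0.0207), as were 1 photoreceptor marker, the arrestin Arr1 (0.86, adjusted p = 0.0159), and 1 glia marker, Gs2 (adjusted p = 0.0322). The background with the block was 6.98% of features higher and 7.56% lower. Summed levels of the glia, photoreceptor and blood cell lists were 171 to 316, 8617 to 33806 and 27.5 to 47.2 in pellets, and 120 to 525, 8431 to 14583 and 24.3 to 34.0 in supernatants, in that order of lists. The glia genes Gs2, glutamine synthetase, and nrv2, a sodium pump subunit, had log2 differences of 0.86 and -1.08 (limma adjusted p = 0.0904 and 0.610). nrv2 was at 448 scaled FPKM in supernatant 1, against 11.8 to 86.7 in the other supernatants and 10.6 to 58.3 in pellets. The photoreceptor genes ninaE, the main rhodopsin, and trp, a channel of the light response whose entry is joined with capa, had 0.35 and -2.35 (limma adjusted p = 0.645 and 0.335). The trp entry was at 144, 144, 187 and 3512 scaled FPKM in pellets 1 to 4. In supernatants 1 to 4 it was at 4278, 184, 3510 and 3330. The blood cell genes srp, a GATA factor, and crq, a scavenger receptor, had 0.57 and 0.01 (limma adjusted p = 0.351 and 0.985). ninaE was at 28250 scaled FPKM in pellet 4, against 7541 to 8391 in pellets 1 to 3.

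The named features whose log2 profile over the 8 head libraries was most like the mean centred profile of the 10 genes were Sap47 (Pearson's r = 0.94), the joined entry of CG1600 and CG1603 (0.93), CG13722 (0.93), snoRNA:Psi28S-2149 (0.93) and 1 more feature (0.92), out of 5401 with a mean of at least 5. Sap47, a synapse-associated protein, was highest in supernatant 4, at 513 scaled FPKM, the library where Mhc was high. With Mhc left out of the profile the highest were that same last feature (0.98), CG32694 (0.97), Nplp3 (0.96), lox2 (0.94) and the entry of CG1600 and CG1603 (0.93). The sets shared that feature and the joined entry, and the measure of likeness, over 8 libraries of 4 replicates, has no test.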

How the data were processed

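Of the series' 43 samples, 16 RNA libraries were used, 12 of heads and 4 of S2 cells. The head files the authors deposited give FPKM, with lower and upper bounds, for genes and assembled loci. The S2 files give RPKM per gene, as deposited. The submitters' processing notes name CASAVA 1.9.1, TopHat and Cufflinks for heads, CASAVA 1.9.1, Bowtie, cutadapt and Novoalign for S2 cells, and build dm3 for both. Whether counting used strand is not given in the sources used here, and depth is unknown. S2 cell RNA was poly(A)-selected, per the labels' protocols.

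Entries that joined genes in any head library were merged into 1 feature, which gave 14447 features. Left out were 37, of which 5 lacked a value in some library and 32 had a failed estimate. Of the 14410 used, 949 held several genes. Features with a mean of at least 1 in the deposited values were kept, each library was divided by the median ratio to the geometric mean over these, and limma 3.58.1 (R 4.3.3) was fitted to log2(value + 0.5) with a mean-variance trend, two-sided, with Benjamini-Hochberg adjustment over 8720 head features or 7072 S2 genes. A fold change on this scale understates that of low genes. The written design did not say whether the minimum came before or after scaling. Both orders were fitted before this one, which is that of an earlier treatment of these data, was kept, and the other is given among the alternatives.

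Same-numbered head libraries correlated in their deviations from the group means (0.166, 0.191, 0.326 and 0.196), each above 0.1, so the numbers were taken to pair them, from the data alone. For replicates 1 and 2 the highest correlation with another number was 0.143. The fit without the block was also run on simulated data, and its outcome is not given here. Those data held no pairing, so they do not bear on the blocked fit.

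The genes and lists were chosen with earlier results of these data known. All 10 genes are named. Other lists are named by up to 4 called genes of smallest p, or by the 2 of highest mean if none was called. The calcium handling list held dys, which is a separate gene from Dys, by mistake, and it was under the minimum. The span classes, the profile without Mhc, the fits without a single head library, the blocked fits without a replicate and the order of minimum and scaling were chosen after values were seen. Alternatives were pseudocounts of 0.1 and 1, a minimum of 5 or none, no scaling, quantile normalization, the block, no variance trend, each replicate or library left out, exact 0 as missing, FlyBase entries, features of 1 gene and 6 replicates. Python 3.11.15, pandas 2.3.3, numpy 2.4.6, scipy 1.17.1 and matplotlib 3.10.9 made the tables and figures. Crosslinking libraries were not analysed here.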

Additional observations from a re-analysis of the deposited data

Results flagged for a closer look

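In 2 of the 20 groups of 4 head libraries examined, 1 library lay far from the other 3 by its gap over the group's range (Dixon's test at the 95% level), and chance gives about 1 such group in 20. Mhc in supernatant replicate 4 was at 3546 scaled FPKM, a gap of 0.988 of the range. Mlc2 in the same library was at 440 scaled FPKM, a gap of 0.861 of the range. Supernatant 4 was also the highest supernatant for Act57B, Act87E, up, wupA, Tm1 and Tm2, without such a gap.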

How the results depend on the processing

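Tm1, sls, Act87E and wupA kept a positive log2 difference in heads under each alternative that could be computed for them (sls had no value with 6 replicates, and Tm1, wupA and sls none with FlyBase entries alone), with ranges of 0.36 to 1.60, 0.64 to 1.77, 0.20 to 1.4997 and 0.13 to 1.21. The top of each range came from values as deposited, where the median feature was itself at 0.87. With the replicate block, 609 features were called higher and 659 lower, and 1 of the 10 genes (Tm1). With values as deposited the counts were 4526 and 40, and 7 of the 10 genes were called higher. The sign then turned for Mlc2 (0.64), Act88F (0.53), Act57B (0.87), up (0.88) and Tm2 (0.99), beside 0.87 for the median feature. FlyBase entries alone gave 17 higher and 33 lower, and quantile normalization gave 101 lower. With the minimum taken on the scaled mean, 176 features were higher and 152 lower, and 0 of the 10 genes were called. Tm2 turned to 0.033 with a minimum of 5.

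Leaving out a replicate or library gave 16 to 161 features higher and 45 to 144 lower, with 0 of the 10 genes called. With the block, leaving out replicates 1 to 4 gave 0, 1, 0 and 4 features higher and 0, 7, 4 and 6 lower, and Tm2 turned to 0.13, 0.0046 and 0.12 without replicates 1, 2 and 4. Without the block, differences that turned sign when a replicate or library was left out ranged over -1.62 to 0.16 for Mhc, -0.27 to 0.076 for up, -0.31 to 0.062 for Act57B and -0.26 to 0.20 for Tm2. In S2 cells, leaving out a library gave 472 to 1663 genes higher and 783 to 1671 lower, with 0 to 1 of the 10 genes higher and 0 lower. As deposited, 0 of the 10 genes were higher in S2 cells, and Mlc2 turned to 0.0034 with quantile normalization. S2 libraries of the same number share only a number (correlation 0.05), and the block changed no call of a sarcomere gene there. The causes were not tested. Head depth is unknown, and with 2 libraries per S2 group a call can rest on either one.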
